A study of Mus musculus with 4 samples.

Results

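Imprinted genes are transcribed mainly from the maternal or mainly from the paternal chromosome, and the choice is carried by DNA methylation laid down in the germ line. The loci described here are those of 10 mouse genes of this kind, chosen by name: H19, Igf2, Kcnq1ot1, Cdkn1c, Meg3, Dlk1, Peg3, Grb10, Mest and Peg10. A peak of CTCF or RAD21 was assigned to a gene where it lay within 10 kb of the gene body. Peaks of different lists that overlapped by at least 1 bp were merged into a site, which gave 23 sites at these 10 genes of 33127 sites in all.

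The peaks came from whole limbs of mouse embryos at E12.5, in mid-gestation. The embryos called TgN(38-40) here were of the strain B6CBAF1 and carried a transgene with the boundary region CS38-40 of the HoxD locus on 1 copy of chromosome 10 (TgN(38-40)/Wt). They also lacked that region on both copies of chromosome 2, written del(CS38-40)-/- in the labels. Their CTCF and RAD21 lists came from ChIPmentation, a form of chromatin immunoprecipitation in which a transposase adds the sequencing adapters, with 2 biological replicates per antibody. The only wild-type list was of RAD21, from 1 ChIP-seq library of an earlier study, from limbs that carried neither the transgene nor the deletion. None of the 10 genes is on chromosome 2 or 10, so none lies at the transgene or the deletion.

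The lists held 23829 and 26264 CTCF peaks and 4102 and 14787 RAD21 peaks in TgN(38-40) replicates 1 and 2, against 20874 RAD21 peaks in wild type. Each peak has a fold enrichment over the local expectation and a q-value, the p-value adjusted for the number of places examined. Here a peak's rank is its place in its own list by q-value, where rank 1 is the strongest. Since the lists differ in length, each rank is followed by its percent of the list, low for a strong peak. Folds are comparable only within a list, and folds of different lists stand side by side below without a comparison. The lists hold no read counts, so the depth behind a peak is unknown and a missing peak says only that the site did not reach the threshold in that library. Genotype, protocol and study differ together between the TgN(38-40) and wild-type RAD21 lists and cannot be told apart, and no test between them was made. A list does not separate the maternal from the paternal chromosome, and limbs hold many cell types.

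CTCF is a zinc-finger protein that binds a long, G-rich motif and blocks contact between enhancers and promoters on either side of it. At many of its sites it halts cohesin, the ring complex of which RAD21 is a subunit, and the direction in which the motif reads on the strand decides from which side cohesin is halted. Methylation of CpG dinucleotides inside the motif hinders binding at some sites. At the imprinting control region upstream of H19, CTCF is known to bind the unmethylated maternal chromosome and to keep enhancers beyond H19 from reaching Igf2, while the methylated paternal copy is unbound.

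The sequences that the sites hold are shown first, 5′ to 3′, as read from the GRCm38 reference. The region just upstream of H19 is shown because its CTCF sites are the best known of any imprinted locus. Within 5 kb upstream of the H19 start, the letters GGNGGCAG, the core of the motif in the form found there, occurred 6 times on either strand. The core is in capitals, and each name gives the distance of the core from the H19 5′ end.
H19, 1301 bp upstream (chr7:142579422-142579460, plus strand, in no peak): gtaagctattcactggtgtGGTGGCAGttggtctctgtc
H19, 2169 bp upstream (chr7:142580297-142580335, minus strand): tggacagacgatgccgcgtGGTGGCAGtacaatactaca
H19, 2624 bp upstream (chr7:142580752-142580790, minus strand): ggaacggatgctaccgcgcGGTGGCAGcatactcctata
H19, 3650 bp upstream (chr7:142581778-142581816, minus strand): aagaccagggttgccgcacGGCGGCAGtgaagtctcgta
H19, 3769 bp upstream (chr7:142581897-142581935, minus strand): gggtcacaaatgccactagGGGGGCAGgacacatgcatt
H19, 3894 bp upstream (chr7:142582022-142582060, minus strand, in no peak): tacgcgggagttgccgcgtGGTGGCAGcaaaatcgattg
The 5 cores on the minus strand, which is the strand H19 is read from, spanned the 3 sites described below, and 4 of them lay inside a peak. The same 8 letters occurred in 19.8% and 18.7% of all CTCF peaks of replicates 1 and 2, and in 10.7% of sequences of the same lengths 2000 bp away.

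At the other loci, matches were taken from a CTCF model of 19 bp learned from strong peaks elsewhere, with the consensus NNNCCACNAGGGGGCGCNN. A match is a score that 5% of sequences of the same length 2000 bp away reach. Matches were sought on both strands, those shown are from the strand of the match, and capitals mark the 19 matched bases. These lines show the sites with CTCF in both replicates that held a match, including the site between H19 and Igf2.
H19-Igf2 interval, 32621 bp upstream of H19 (chr7:142610730-142610788, plus strand): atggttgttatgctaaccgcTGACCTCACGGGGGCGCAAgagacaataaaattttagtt
Igf2, 5488 bp upstream (chr7:142672302-142672360, minus strand): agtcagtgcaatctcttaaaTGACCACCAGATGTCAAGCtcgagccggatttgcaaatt
Igf2, 9021 bp upstream (chr7:142675834-142675892, minus strand): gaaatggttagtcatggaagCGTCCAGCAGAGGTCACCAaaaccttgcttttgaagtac
Cdkn1c, 3001 bp upstream (chr7:143464056-143464114, minus strand): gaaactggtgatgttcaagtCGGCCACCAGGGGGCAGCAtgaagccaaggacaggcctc
Cdkn1c, 5408 bp upstream (chr7:143466474-143466532, minus strand): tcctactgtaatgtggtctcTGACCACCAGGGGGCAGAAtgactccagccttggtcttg
Cdkn1c, 9084 bp upstream (chr7:143470136-143470194, minus strand): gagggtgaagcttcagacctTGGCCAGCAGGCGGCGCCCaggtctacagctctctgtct
Meg3, 1193 bp inside (chr12:109542147-109542205, plus strand): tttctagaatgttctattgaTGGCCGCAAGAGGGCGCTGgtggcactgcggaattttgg
Meg3, 2043 bp inside (chr12:109543016-109543074, minus strand): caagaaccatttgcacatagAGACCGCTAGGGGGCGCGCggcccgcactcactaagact
Grb10, 65154 bp inside (chr11:11973583-11973641, minus strand): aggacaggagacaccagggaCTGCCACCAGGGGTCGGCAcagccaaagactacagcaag
Grb10, 12807 bp inside (chr11:12025862-12025880, plus strand, match only): TCGCCACACGGGGTCGCTG
The Peg3 intron site is given whole, as read on the strand of the gene, because it holds more than a CTCF match. Its CTCF match and both copies of GCCATNTT, the letters bound by the zinc-finger factor YY1, are in capitals.
Peg3 intron (chr7:6727286-6727556, minus strand): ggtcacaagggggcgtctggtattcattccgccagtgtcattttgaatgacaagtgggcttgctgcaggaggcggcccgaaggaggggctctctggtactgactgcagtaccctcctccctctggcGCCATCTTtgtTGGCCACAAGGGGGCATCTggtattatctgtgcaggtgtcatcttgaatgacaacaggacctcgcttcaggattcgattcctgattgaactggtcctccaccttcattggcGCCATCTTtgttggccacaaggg
The middle of this stretch reads as a YY1 match followed directly by a CTCF match, and the edges of the stretch repeat parts of the same pair.

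Peaks were frequent at these genes and low in their lists. A CTCF peak lay within 10 kb of 8 of the 10 genes in replicate 1 and again in replicate 2, against 49.8% and 52.6% of all 31358 protein-coding and long non-coding genes. The same 8 genes had a site with CTCF in both replicates, against 47.1% of all genes. Stronger peaks gave no such excess. With −log10 q of at least 5 the count was 5 of 10, against 41.5% of all genes, and with at least 10 it was 1 of 10, Cdkn1c, against 25.1%. RAD21 peaks lay at 2 of the 10 genes in TgN(38-40) replicate 1 and at 6 in replicate 2, against 7 in wild type. Over all genes these shares were 11.5% and 35.8% in TgN(38-40) and 44.5% in wild type. Only Kcnq1ot1 had no peak of any list, and Dlk1 had a wild-type RAD21 peak alone. The 10 genes had a median length of 20485 bp, against 13297 bp over all genes, and a longer gene has more room for a peak. The part of length in these shares was not tested.

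**Figure D1:**
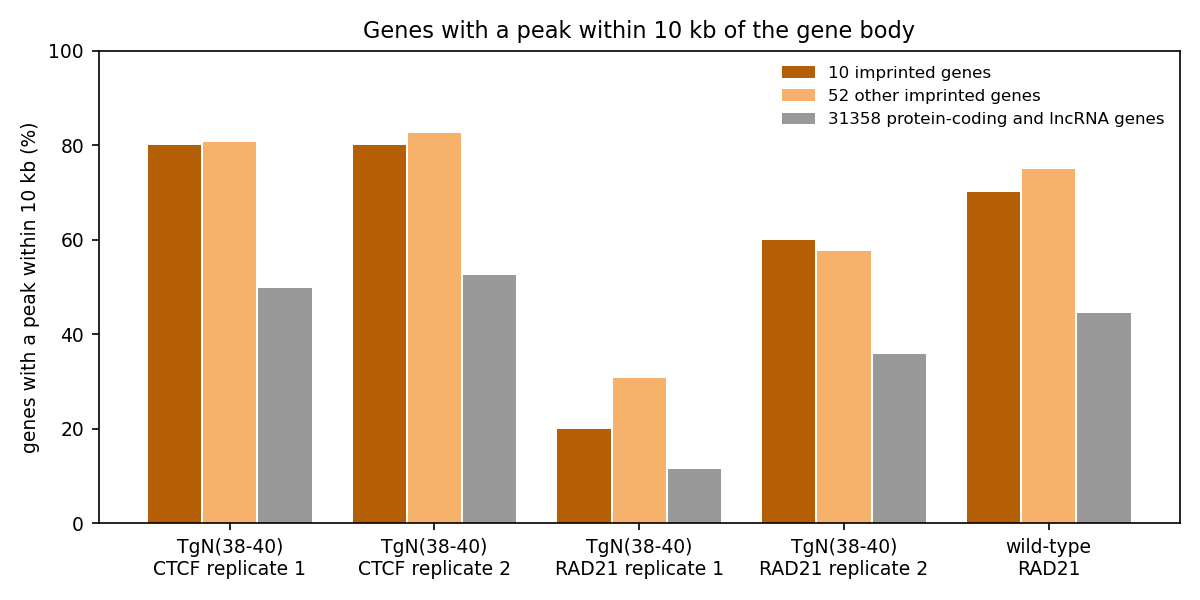
Share of genes with at least 1 peak within 10 kb of the gene body (vertical axis, %) in each of the 5 lists, for the 10 imprinted genes, 52 other imprinted genes and all 31358 protein-coding and long non-coding genes; bars have no error, since each is a count of genes. In every list the bar of the 10 imprinted genes is higher than that of all genes, and it stands close to that of the 52 other imprinted genes in all lists but RAD21 replicate 1, where it is lower.

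In rank, most CTCF peaks at the imprinted genes stood in the lower part of their lists. The 14 CTCF peaks of replicate 1 had a median fold enrichment of 5.52, against 6.52 for the whole list, and 3 of them ranked above the middle of the list. The 14 of replicate 2 had a median of 6.43, against 7.63 for the list, and 5 ranked above its middle. Cdkn1c and Meg3 held all 3 of those in replicate 1. RAD21 peaks had a median fold of 5.28 at the imprinted genes in TgN(38-40) replicate 2, against 7.30 over that list, with 4 of 11 above the middle. In wild type the median was 4.19, against 4.57 over the list, and 9 of 18 ranked above the middle. So the wild-type RAD21 peaks here were placed about evenly in their list, while those of both CTCF lists and of RAD21 replicate 2 leaned to the lower part. RAD21 replicate 1 had only 2 peaks, 1 of them above the middle.

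**Figure D2:**
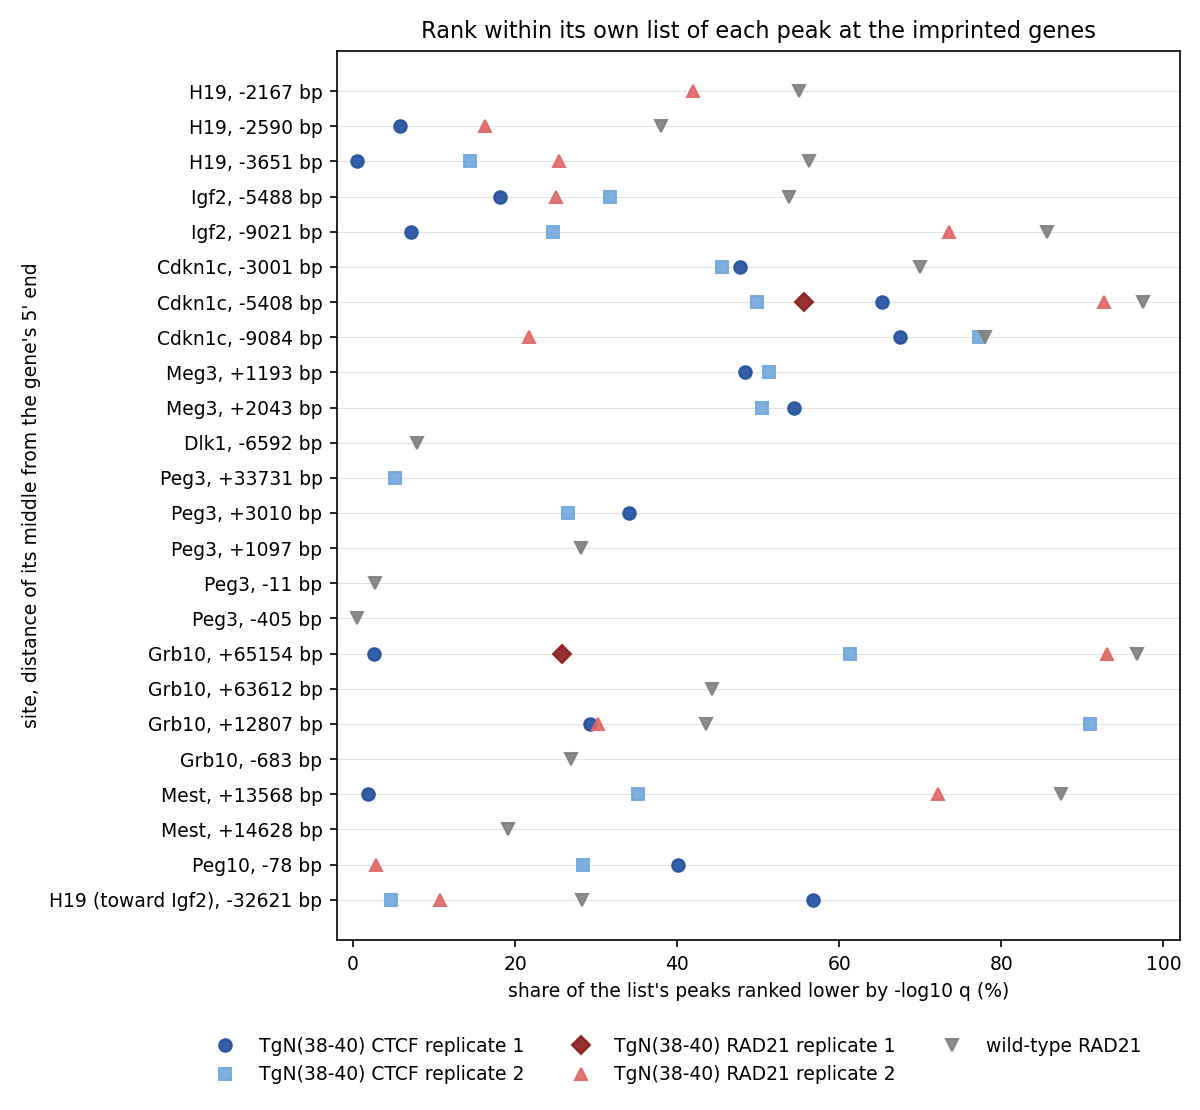
Place of each peak in its own list (horizontal axis, share of that list's peaks with a weaker q-value, %, so 100 is the strongest) for the 23 sites at the imprinted genes and the site in the H19-Igf2 interval, with the 4 TgN(38-40) lists and the wild-type RAD21 list as symbols. The symbols of RAD21 replicate 2 and wild-type RAD21 at the Grb10 site at 65154 bp and the Cdkn1c site at -5408 bp lie farthest to the right. Those of RAD21 replicate 1 at these sites do not, and a missing symbol is a list with no peak there.

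Near H19, the maternally expressed non-coding RNA, RAD21 peaks held higher places in their lists than CTCF peaks. H19 (chr7:142575529-142578143, minus strand) had 3 sites, all intergenic and all upstream, with their middles 2167, 2590 and 3651 bp before its 5′ end. At the first (chr7:142580114-142580506), RAD21 reached 5.28-fold (rank 8578, 58.0%) in TgN(38-40) replicate 2, and 4.19-fold (rank 9394, 45%) in wild type, and no CTCF peak was listed. The second (chr7:142580575-142580891) had 4.04-fold CTCF in replicate 1 (rank 22466, 94.3%) and none in replicate 2, with RAD21 at 4.29-fold (rank 12386, 83.8%) in TgN(38-40) replicate 2, and 3.30-fold (rank 12956, 62.1%) in wild type. The third (chr7:142581630-142581959) was the only one of the 3 with CTCF in both replicates. It had 3.53-fold (rank 23728, 99.6%) and 5.12-fold CTCF (rank 22484, 85.6%) in replicates 1 and 2, and its RAD21 peaks were 4.68-fold (rank 11026, 74.6%) in TgN(38-40) replicate 2, and 4.24-fold (rank 9136, 43.8%) in wild type. All 3 CTCF peaks at H19 thus fell near the bottom of their lists, and RAD21 replicate 1 of TgN(38-40) had none there.

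None of these 3 sites held a match to the general CTCF model, although each held the H19 core letters printed above. The cores at 2169, 2624 and 3650 bp scored 9.99, 10.2 and 8.58 bits on the model, under the threshold of 10.3 bits, and each carried 2 or 3 CpG dinucleotides in its 19 bases. The core at 3894 bp scored 11.9 bits and was the only one past the threshold, yet it lay in no peak of any list. The core at 3769 bp scored -4.14 bits and lay at the edge of the replicate 1 CTCF peak of the third site. A score says how like the model the letters are, not how strongly they are bound.

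Igf2, the paternally expressed growth factor, also had its peaks upstream of the gene. Igf2 (chr7:142650766-142666816, minus strand) had 2 sites, and both held CTCF in both replicates and RAD21 in TgN(38-40) replicate 2 and in wild type. The nearer site (chr7:142672126-142672483) had CTCF at 5.12-fold (rank 19514, 81.9%) and 6.38-fold (rank 17942, 68.3%) in replicates 1 and 2, and RAD21 at 5.00-fold (rank 11086, 75.0%) in TgN(38-40) replicate 2, and 4.49-fold (rank 9655, 46.3%) in wild type. The farther site (chr7:142675617-142676058) had CTCF at 4.50-fold (rank 22125, 92.8%) and 5.97-fold (rank 19802, 75.4%), and RAD21 at 7.95-fold (rank 3906, 26.4%) in TgN(38-40), and 7.14-fold (rank 2987, 14.3%) in wild type. The farther site stood much higher in these 2 RAD21 lists than in either CTCF list. RAD21 replicate 1 of TgN(38-40) had no peak at either Igf2 site. Both motif matches were on the minus strand, so they read toward Igf2. At the farther site the match lay across the edge of the CTCF peaks, and only the RAD21 peaks contained it whole.

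Between the H19 and Igf2 gene bodies lay 72622 bp (chr7:142578144-142650765), and the 4 sites in it were the 3 upstream of H19 and 1 more. By list there were 3 and 2 CTCF peaks and 0 and 4 RAD21 peaks in TgN(38-40) replicates 1 and 2, against 4 RAD21 peaks in wild type. Of 33004 adjacent windows of this length on the autosomes, 5.87% held 4 sites or more. As many RAD21 peaks as here were found in 0.358% of windows in TgN(38-40) replicate 2 and in 1.49% in wild type. The interval was thus dense in these 2 lists, while RAD21 replicate 1 of TgN(38-40) had no peak in it, as in 89.1% of windows.

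The additional site (chr7:142610610-142610919) lay 32621 bp upstream of H19, in an intron of the non-coding gene Gm33148. CTCF was 7.03-fold there in replicate 1 (rank 10305, 43.2%) and 4.69-fold in replicate 2 (rank 25023, 95.3%), so the replicates placed it far apart. RAD21 was 5.03-fold in TgN(38-40) replicate 2 (rank 13195, 89.2%), and 3.39-fold in wild type (rank 14985, 71.8%). Its motif match was on the plus strand, which reads toward Igf2, opposite to the cores upstream of H19 and to both matches beyond Igf2.

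**Figure D3:**
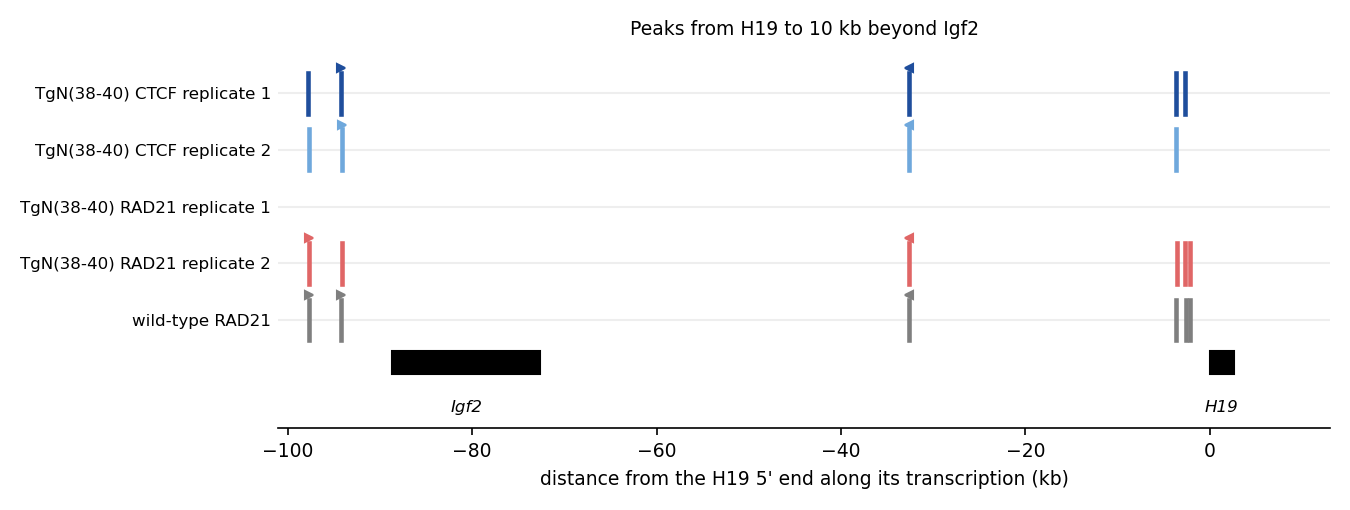
Peaks of the 5 lists from H19 to 10 kb beyond Igf2 (horizontal axis, kb from the H19 5′ end, with the direction of transcription to the right; gene bodies as black boxes), where each vertical line is a peak and an arrowhead gives the direction of a motif match inside that peak. The peaks form 3 groups: upstream of H19 with no match, near -32.6 kb with a match reading to the left, and beyond Igf2 with matches reading to the right.

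Farther along chromosome 7, the genes of the neighbouring imprinted cluster divided sharply. Kcnq1ot1, a paternally expressed antisense RNA that silences its neighbours in cis, had no peak in its 93092 bp (chr7:143203458-143296549) or within 10 kb of it. An empty stretch of this length was common, since 40.1% of 21203 windows of 113092 bp had no site. Its nearest peaks lay at lower coordinates, inside the gene Kcnq1, at 49257 bp in TgN(38-40) RAD21 replicate 2 and at 49138 bp in wild-type RAD21. That TgN(38-40) RAD21 peak was 10.4-fold (rank 797, 5.39%), and the wild-type one 7.15-fold (rank 2118, 10.1%). RAD21 replicate 1 of TgN(38-40) was 4.78-fold there (rank 3537, 86.2%), and CTCF was 5.16-fold (rank 13273, 55.7%) and 4.53-fold (rank 23159, 88.2%) in replicates 1 and 2. The place was therefore high in 2 of the 3 RAD21 lists only.

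Cdkn1c, the maternally expressed inhibitor of cyclin-dependent kinases that Kcnq1ot1 silences, had the highest-ranking CTCF peak of the genes on chromosome 7 in both replicates. Cdkn1c (chr7:143458339-143461050, minus strand) had 3 sites upstream of it, all intergenic and all with CTCF in both replicates. The site at -3001 bp (chr7:143463874-143464229) had CTCF at 5.40-fold (rank 12466, 52.3%) and 6.46-fold (rank 14311, 54.5%), no RAD21 peak in TgN(38-40), and RAD21 at 5.01-fold in wild type (rank 6270, 30.0%). The site at -5408 bp (chr7:143466207-143466709) had a peak in all 5 lists. There CTCF was 5.65-fold (rank 8287, 34.8%) and 6.0-fold (rank 13188, 50.2%), and RAD21 was 5.43-fold (rank 1820, 44.4%) and 8.98-fold (rank 1088, 7.36%) in TgN(38-40) replicates 1 and 2, and 8.10-fold (rank 520, 2.49%) in wild type. At -9084 bp (chr7:143469939-143470330) CTCF was 6.22-fold (rank 7735, 32.5%) and 8.52-fold (rank 5971, 22.7%), and RAD21 was 4.60-fold (rank 11572, 78.3%) in TgN(38-40) replicate 2, and 5.84-fold (rank 4586, 22.0%) in wild type. RAD21 was therefore highest at the middle site in every RAD21 list, while CTCF ranked highest at the site farthest from the gene in both replicates. All 3 matches were on the minus strand and read toward Cdkn1c. The match at -3001 bp scored higher than 98.9% of the peaks the model was learned from, although RAD21 had no TgN(38-40) peak at that site.

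At the Dlk1-Meg3 locus of chromosome 12, CTCF was present without RAD21 at Meg3, and Dlk1 had neither in TgN(38-40). Meg3 (chr12:109541001-109571726, plus strand), a maternally expressed non-coding RNA, had 2 CTCF sites inside its exons near the 5′ end. The site 1193 bp inside (chr12:109542035-109542353) had CTCF at 6.51-fold (rank 12306, 51.6%) and 7.85-fold (rank 12800, 48.7%) in replicates 1 and 2. The site 2043 bp inside (chr12:109542936-109543152) had 6.81-fold (rank 10860, 45.6%) and 7.75-fold (rank 13015, 49.6%). The replicates placed both sites near the middle of their lists. No RAD21 list had a peak within 10 kb of Meg3, in TgN(38-40) or in wild type, and the nearest lay 102811 bp away in TgN(38-40) replicate 2 and 37375 bp away in wild type. The matches at these sites read toward each other, plus at the first and minus at the second, and held 2 and 3 CpG dinucleotides.

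Dlk1 (chr12:109452823-109463336, plus strand), which encodes a paternally expressed membrane protein of the Notch ligand family, had a single wild-type RAD21 peak (chr12:109446110-109446353) of 2.61-fold (rank 19239, 92.2%). Its nearest CTCF peaks lay upstream just past the 10 kb limit, at 14655 bp in replicate 1 with 9.35-fold (rank 973, 4.08%) and at 14718 bp in replicate 2 with 12.1-fold (rank 2203, 8.39%). That CTCF site ranked higher in each replicate than any CTCF peak within 10 kb of the 10 genes, whose farthest upstream sites lay 9084 bp (Cdkn1c) and 9021 bp (Igf2) from a 5′ end. RAD21 there was 4.29-fold (rank 4085, 99.6%) and 5.66-fold (rank 10088, 68.2%) in TgN(38-40) replicates 1 and 2. The 77664 bp between Dlk1 and Meg3 (chr12:109463337-109541000), which include the imprinting control region of the locus, held no site of any list. Of 30857 windows of that length, 49.6% were also empty, so the absence is ordinary for an interval of this size.

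Peg3, a paternally expressed gene for a zinc-finger protein, had its CTCF peaks of TgN(38-40) and its RAD21 peaks of wild type at different places. Peg3 (chr7:6703892-6730431, minus strand) had 5 sites, of which 1 had CTCF in both replicates. That site, printed above, lay in an intron 3010 bp inside the gene and had CTCF at 5.82-fold (rank 15728, 66.0%) and 6.01-fold (rank 19316, 73.5%), with no RAD21 peak in any list. Wild-type RAD21 had 3 peaks closer to the start, at 1097, -11 and -405 bp, of 3.28-fold (rank 14996, 71.8%), 2.31-fold (rank 20319, 97.3%) and 2.12-fold (rank 20788, 99.6%), and TgN(38-40) RAD21 had none. The peak at 1097 bp held a match to the CTCF model on the plus strand, of 15.3 bits. Wild type had no CTCF list, so CTCF at these 3 peaks was not measured in wild type. The peak at -11 bp covered the start of Peg3, and that at -405 bp lay in an exon of Usp29, the paternally expressed gene read in the opposite direction. The last site (chr7:6696623-6696777), beyond the 3′ end, had CTCF in replicate 2 alone, at 4.84-fold (rank 24894, 94.8%).

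The sequence around the Peg3 intron site was repetitive in a single direction. With 1 kb added on each side, the window of 2271 bp held 4 matches to the CTCF model and 8 copies of the YY1 letters, all on the minus strand, the strand Peg3 is read from. Among windows of this length around all sites, 0.903% held as many CTCF matches and 0.0697% as many YY1 copies. The YY1 letters and the window were chosen after the values here were seen, so these shares only describe this site. Of the 4 CTCF matches, 3 were near-copies of each other.
Peg3, at the edge of the site (chr7:6727279-6727297, minus strand): TGGCCACAAGGGGGTGTCT
Peg3, inside the site (chr7:6727401-6727419, minus strand): TGGCCACAAGGGGGCATCT
Peg3, at the other edge (chr7:6727539-6727557, minus strand): TGGTCACAAGGGGGCGTCT
These are printed in capitals over their whole length, since each is a match to the model. The CTCF peak of replicate 1 covered the first and that of replicate 2 the last, at least in part, and both covered the middle one. YY1 letters occurred in 5.79% and 5.39% of all CTCF peaks in replicates 1 and 2. Binding of YY1 was not measured here.

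Grb10, which encodes an adaptor protein of growth factor receptors and is maternally expressed in most tissues from its upstream promoter, held the single strongest CTCF peak at the 10 genes. Grb10 (chr11:11930508-12038683, minus strand) had 4 sites, 2 of them with CTCF in both replicates. The first of these (chr11:12025673-12026079) lay 12807 bp inside, in an exon and 448 bp after the start of an annotated transcript. It had CTCF at 6.07-fold (rank 16854, 70.7%) in replicate 1 and 13.2-fold (rank 2368, 9.02%) in replicate 2, and RAD21 at 6.30-fold (rank 10311, 69.7%) in TgN(38-40) replicate 2, and 4.20-fold (rank 11788, 56.5%) in wild type. The replicates thus disagreed on how strong this CTCF site was. It was rich in CpG, with 27 in the 300 bp around its middle, and its match held 3 CpG and read toward the 5′ end of the gene.

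The other Grb10 site (chr11:11973283-11973776), in an intron 65154 bp inside, had a peak in all 5 lists and stood higher in RAD21 replicate 2 and in wild-type RAD21 than in either CTCF list. CTCF was 4.32-fold (rank 23209, 97.4%) and 8.72-fold (rank 10160, 38.7%) there in replicates 1 and 2. RAD21 was 5.45-fold (rank 3043, 74.2%) and 11.2-fold (rank 1035, 7.00%) in TgN(38-40) replicates 1 and 2, and 8.83-fold (rank 685, 3.28%) in wild type. RAD21 replicate 2 had its highest-ranking peak at any of the 10 genes here. Wild-type RAD21 had peaks of 3.70-fold (rank 11621, 55.7%) at 63612 bp and 3.36-fold (rank 15260, 73.1%) at -683 bp that no TgN(38-40) list shared.

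Mest and Peg10, both paternally expressed and both on chromosome 6, had CTCF sites with no match to the model. Mest (chr6:30723547-30748465, plus strand), which encodes an alpha/beta hydrolase-fold protein, had CTCF 13568 bp inside (chr6:30736896-30737334), 935 bp before an internal transcript start. CTCF there was 3.92-fold (rank 23399, 98.2%) and 6.69-fold (rank 17040, 64.9%) in replicates 1 and 2, and RAD21 was 8.24-fold (rank 4120, 27.9%) in TgN(38-40) replicate 2, and 7.72-fold (rank 2626, 12.6%) in wild type. This site too stood far higher in these RAD21 lists than in the CTCF lists. RAD21 replicate 1 of TgN(38-40) had no peak there. Wild-type RAD21 also had a 2.85-fold peak (rank 16894, 80.9%) at 14628 bp, over that transcript start, with 34 CpG in the 300 bp around its middle.

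Peg10 (chr6:4747306-4760517, plus strand), a gene derived from a retrotransposon, shares its promoter with Sgce, which is read the other way. Its only site (chr6:4747053-4747403) lay on that promoter, 78 bp before the Peg10 5′ end. CTCF was 6.52-fold (rank 14280, 59.9%) and 6.40-fold (rank 18807, 71.6%) in replicates 1 and 2, and RAD21 was 4.40-fold (rank 14364, 97.1%) in TgN(38-40) replicate 2. Wild-type RAD21 had no peak there, which made Peg10 the only one of the 10 genes with a RAD21 peak in TgN(38-40) and none in wild type. The TgN(38-40) peak stood near the bottom of its list.

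**Figure D4:**
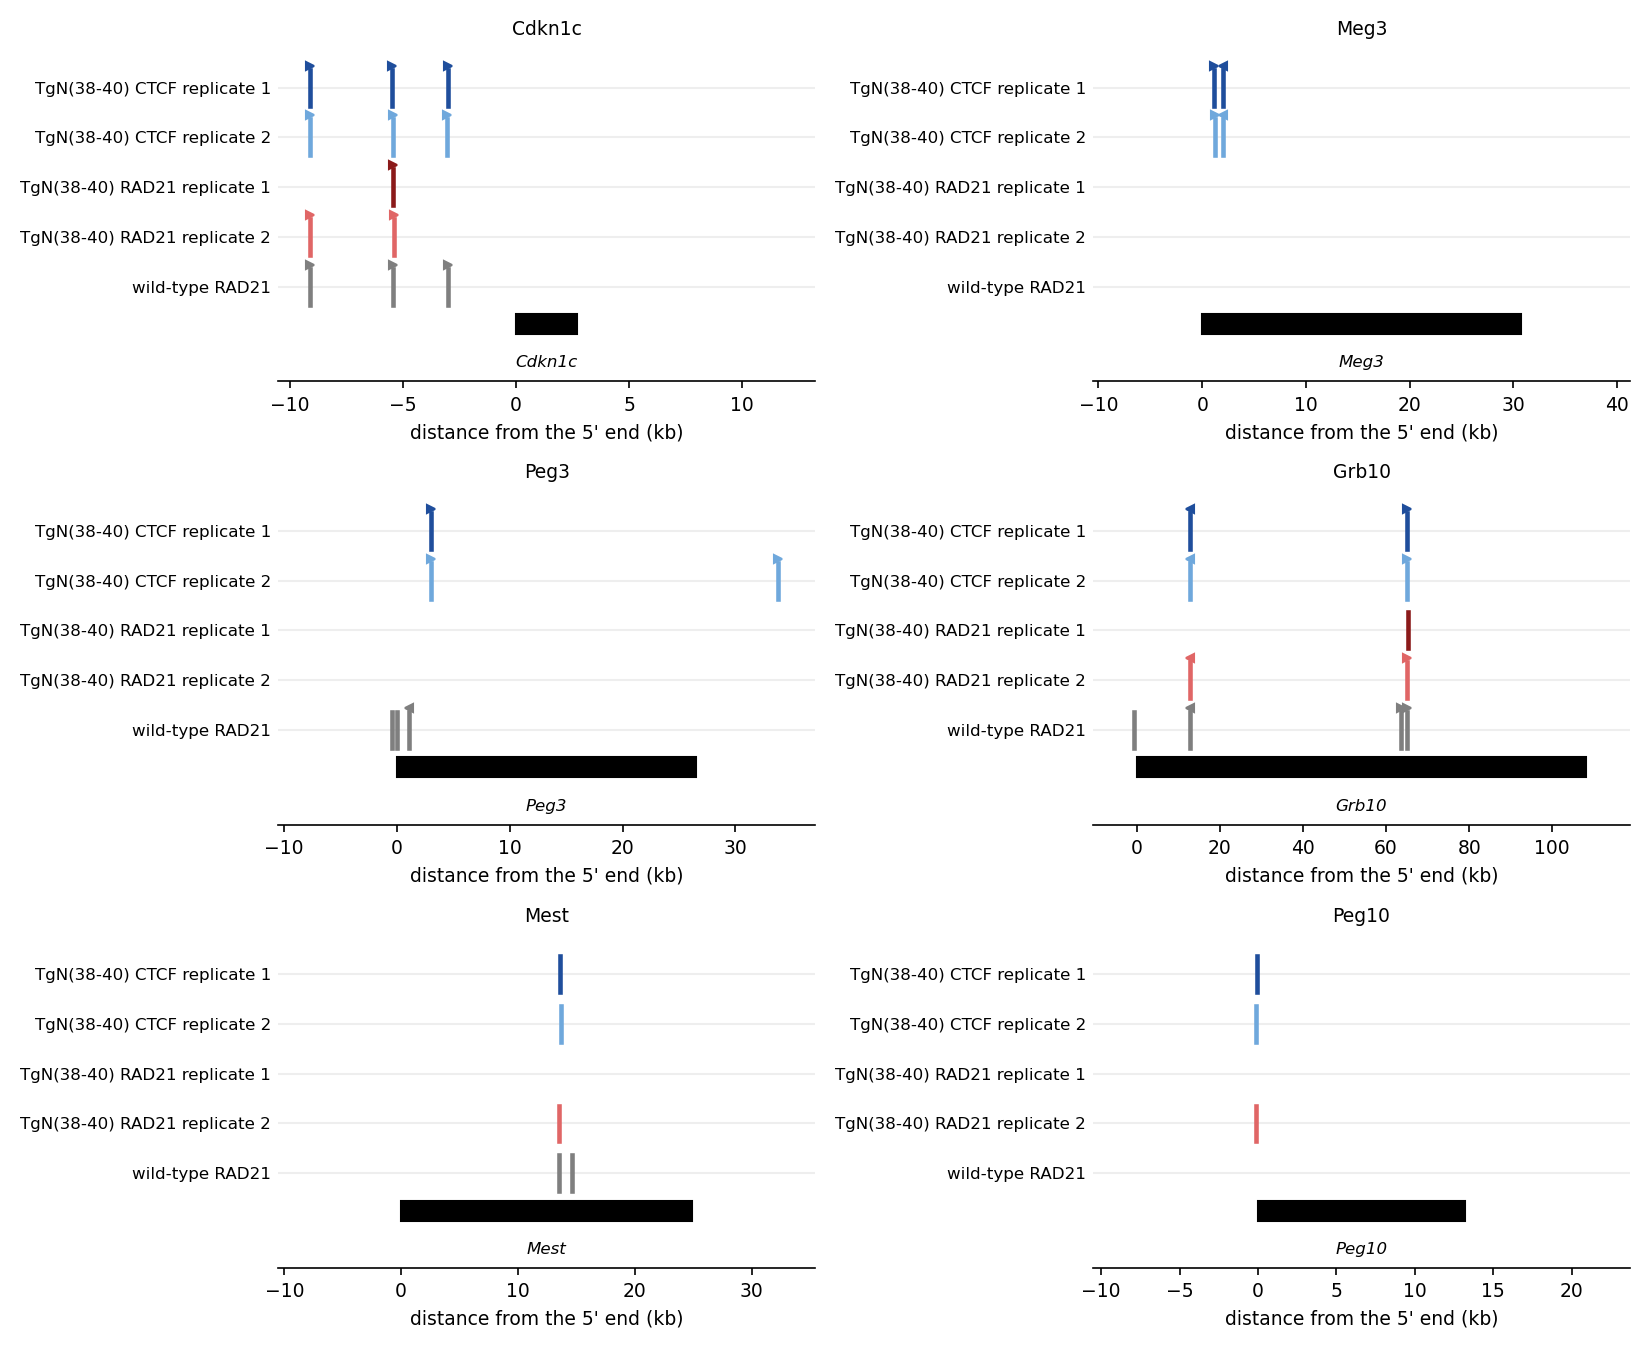
Peaks of the 5 lists at Cdkn1c, Meg3, Peg3, Grb10, Mest and Peg10 (horizontal axes, kb from each gene's 5′ end, with transcription to the right; gene bodies as black boxes; vertical lines are peaks and arrowheads the direction of a motif match inside a peak). Arrowheads read toward the gene at all 3 Cdkn1c sites and toward each other at Meg3, where the 3 RAD21 rows are empty.

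RAD21 accompanied CTCF at these genes about as often as elsewhere. Of the 13 sites with CTCF in both replicates, RAD21 peaks lay at 2 in TgN(38-40) replicate 1 and at 9 in replicate 2, against 9 in wild type. Over all 21034 such sites the shares were 17.6% and 56.8% in TgN(38-40) and 69.2% in wild type. No RAD21 list had a peak at 3 of the 13, both Meg3 sites and the Peg3 intron, against 28.7% of all. Counted by peak and over all RAD21 lists, overlap was found for 11 of 14 CTCF peaks (replicate 1) and 10 of 14 (replicate 2), against 66.4% and 64% of all CTCF peaks. Over the 28 CTCF peaks together, 21 overlapped a RAD21 peak, or 75% (95% interval 55.1 to 89.3%, exact Clopper-Pearson, which takes peaks as independent although replicates share sites).

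Where both proteins were present, RAD21 often held the higher place in TgN(38-40) replicate 2 and in wild type. RAD21 replicate 1 had a peak at 2 such sites and ranked above both CTCF peaks at neither. At 5 of 9 imprinted sites with CTCF in both replicates, the RAD21 peak of TgN(38-40) replicate 2 ranked higher in its list than either CTCF peak did in its own, against 30.8% of all such sites. In wild type this held at 8 of 9, against 38.1% of all such sites. The exception in wild type was the Grb10 exon site. The low places of the CTCF peaks at these genes, given above, enter this comparison.

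A RAD21 peak of any list without a TgN(38-40) CTCF peak was seen at 8 of the 23 sites, against 4414 of all 33127 sites. Of the 8, 7 had a wild-type peak alone. Wild type had no CTCF list, so CTCF at these 7 was not measured in wild type. Among them, the Peg3 site at 1097 bp and the Grb10 site at 63612 bp held a match to the CTCF model. Wild-type RAD21 had 18 peaks at the 10 genes, so 7 of 18 were in no TgN(38-40) list, against 14.4% of all wild-type sites. They lay at Peg3 (3), Grb10 (2), Dlk1 and Mest. Each was below the middle of the wild-type list, where 7 of 9 imprinted peaks stood alone, against 28.0% of all wild-type peaks there. They had a median fold of 2.85, and 2.75 was the median of all wild-type peaks found alone. The wild-type list thus held weak peaks at imprinted genes that fell below the threshold in both RAD21 replicates of TgN(38-40), of which replicate 1 was the shortest list.

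In sequence, matches to the model were less frequent than over all CTCF peaks, and the H19 core letters and CpG were more frequent. A match was found in 9 of 14 CTCF peaks in replicate 1 and 10 of 14 in replicate 2, against 83.7% and 86.5% of all peaks. In the lower part of the lists, below the middle, the shares over all peaks were 74.3% and 79.7%. These shares are not like for like, since 3 and 5 of the imprinted peaks ranked above the middle, and all of those held a match. The low-ranking imprinted peaks thus held a match less often than the 14 did. The letters GGNGGCAG were found in 7 of 14 and 6 of 14, against 19.8% and 18.7% of all peaks. They lay at H19 (2 and 1 of these peaks), at all 3 Cdkn1c sites, at the first Meg3 site and at the Grb10 intron site. The letters were chosen after the values were seen, in the form found upstream of H19. The H19 peaks therefore enter this count by that choice. The peaks without a whole match were those at H19, Mest and Peg10, and those of the farther Igf2 site. No site held more than 1 match. Counting the interval between H19 and Igf2, there were 14 matches, 10 on the minus and 4 on the plus strand, and 10 contained a CpG. Over all CTCF peaks of replicate 2 with a match, the best match contained a CpG in 46.05%. The 2 sets differ, since some of the 14 matches lay in wild-type RAD21 peaks alone.

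CpG dinucleotides were more than 0.6 of the number expected from base composition in 9 of the 23 sites, against 11.9% of all sites. The median was 9 CpG per 300 bp at the imprinted sites and 4 over all sites, and the highest was 34 at the internal start of Mest. Some of these 9 sites cover a transcript start, such as those at Peg10 and at the internal start of Mest. Others do not, such as the H19 site at -2167 bp. CpG content was not compared among promoters alone. Methylation was not measured.

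The promoters were searched with the same model. RefSeq promoters of GRCm38, each 300 bp around a transcription start, were matched for 7 of the 10 genes, and H19, Cdkn1c and Peg10 had no entry. None of the 14 promoters of these 7 genes had a match to the model, against 8.40% of 32851 promoters. At that share about 1 of 14 would hold a match, and 2 of the 14, both at Mest, overlap, so the count is near the background. Only wild-type RAD21 had a peak on any of them, at Mest and at Peg3.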

How the data were processed

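CTCF and RAD21 were mapped in E12.5 whole limbs of TgN(38-40) embryos, with 2 biological replicates per antibody. Among the tools in the submitters' processing notes are MACS2 2.1.1.20160309, Bowtie2 2.3.4.1, cutadapt 1.16 and Picard 2.19. Reads were aligned to mm10 or to a genome with the transgene, and the authors called peaks on each replicate at default settings. The deposited values of a peak are a fold enrichment (a ratio to the local expectation) and the −log10 of its p-value and of its q-value, and each listed q-value is under 0.05. The control used by MACS2 and the depth are not given in the sources used here. Input libraries were not used here.

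The 5 mm10 lists were used, and the 4 lists on the transgene genome served as an alternative. Gene positions are GENCODE M21 on GRCm38. The CTCF model was learned from 2000 replicate 2 peaks (those after the first 100 by strength), leaving out chromosomes 2, 10 and those of the 10 genes. Intervals were set beside adjacent windows of the same length. Without read counts, and with 2 replicates against 1 library of another protocol, no test between genotypes was possible, so counts are descriptions beside their share over all genes, sites or windows. By rule, all 10 genes and all their sites are described. The genes and lists were chosen with earlier results of these data known. The H19 core letters, the YY1 letters, the window around the Peg3 site, CpG content and the comparison of ranks between proteins were chosen after the values were seen. The search and overlap steps were tested on simulated data. Stricter q-values, leaving out a replicate, other distances and overlaps, other motif searches and ranking by fold were tried. The tools were Python 3.11.15 with matplotlib 3.10.9, scipy 1.17.1, pandas 2.3.3 and numpy 2.4.6.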

Additional observations from a re-analysis of the deposited data

How the results depend on the processing

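Of 35 alternatives computed, 3 moved a result beyond its tolerance, which was 1.5 times for counts, the 95% binomial interval for shares of peaks (55.1 to 89.3% for RAD21 overlap) and 1 SD for the median rank. Within it, the sites at the 10 genes numbered 17 to 26, the RAD21 overlap 57.1 to 75% and the motif share 50%. The binomial interval is wide, and it takes peaks as independent although replicates share sites. The number of imprinted genes with a CTCF site in both replicates fell to 5 (Cdkn1c, Meg3, Peg3, Grb10 and Peg10) with −log10 q of at least 5 and to 1 (Cdkn1c) with at least 10, against 8 as deposited. Exact letters GGNGGCAG were found in 46.4% of the 28 CTCF peaks, where 67.9% had a match to the model. Beside all CTCF peaks the direction turned, since the letters were in 19.8% and 18.7% of these in replicates 1 and 2 and a model match in 83.7% and 86.5%. The letters take the form found upstream of H19, so the H19 peaks count by that choice. Without replicate 1 or 2 of each antibody, the sites at the 10 genes numbered 22 to 23, the genes with CTCF in the remaining replicate numbered 8, the sites between H19 and Igf2 stayed at 4 and those between Dlk1 and Meg3 at 0, and RAD21 lay on 71.4% of CTCF peaks. The H19-Igf2 count also stayed at 4 with −log10 q of at least 10, because the wild-type RAD21 list holds all 4 of these sites. The Dlk1-Meg3 count of 0 could not change with stricter q-values or with a replicate left out. On the transgene genome Mest no longer had such a site (7 genes), within 5 kb Igf2 did not (7 genes), and within 20 kb Dlk1 gained one (9 genes). No paired analysis was possible because the result comes from no test and nothing ties a CTCF replicate to a RAD21 replicate. Without read counts, a weak peak and a site just under the threshold cannot be told apart, and this bears most on H19, Mest and Igf2, whose CTCF peaks rank low.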

Other observations

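A list of 52 other imprinted genes, all found in the annotation, resembled the 10 in how often a peak lay within 10 kb. CTCF peaks lay at 80.8% and 82.7% of them in replicates 1 and 2, and RAD21 peaks at 30.8% and 57.7% in TgN(38-40) replicates 1 and 2, against 75% in wild type. They were longer, with a median of 44804.5 bp, and several share sites with the 10 genes because they are neighbours, such as Slc22a18 with Cdkn1c and Sgce with Peg10. The range among them was wide. Ins2, the insulin gene next to Igf2 whose annotated body runs over 64726 bp, had 7 sites with CTCF in both replicates, and Slc22a18, a transporter gene next to Cdkn1c, had 5. Asb4, H13 and Osbpl5 had 4 each. By contrast Klf14, Nap1l5, Ndn, Slc22a2 and Snrpn had no peak in any list, and Snrpn has a body of 157725 bp. Within the Dlk1-Meg3 cluster, Rtl1 and Rian had a wild-type RAD21 peak and no other, while Mirg and Dio3 each had a CTCF site in both replicates.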
